A study of Arabidopsis thaliana with 16 samples.

Results

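The comparison described here set leaves filed as EXS34 against leaves filed as pho14 in Arabidopsis thaliana. It was defined by the names of the count files and took 4 of the 16 libraries of the series, 2 in each group. EXS34 is a line of the pho1-4 knockout mutant that expresses a GFP fusion of the EXS domain of PHO1, and pho14 stands for the pho1-4 mutant itself, so both genotypes lack intact PHO1 from its own locus. The other leaf libraries were filed as EXS32, a separate line with the same fusion, and as compl, the mutant complemented with PHO1. All plants were 25 days old and were raised on Oil-Dri pellets with Hoagland nutrients, with no treatment, and roots of the same 4 genotypes were also sequenced.

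The sample titles and the file names of the leaf libraries give different genotypes. The libraries filed as EXS34 are titled EXS32, those filed as pho14 are titled EXS34, those filed as EXS32 are titled Compl and those filed as compl are titled KO. The conflict could not be settled from the labels, so each group is called by its file name below, and every direction given for leaves holds for those files and not for a checked genotype. In roots the titles and the file names give the same genotype. The promoter of the fusion is not given in the sources used here, each EXS line stands for 1 line, and separate plants for the 2 libraries of a group are not stated. The p-values therefore reflect only how these libraries vary, which may be technical.

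PHO1 is the exporter that moves phosphate into the root xylem, and leaves of pho1 mutants receive little phosphate from the root. Plants short of phosphate switch on a conserved set of genes through PHR1, a factor that binds the promoter element P1BS and is held back by SPX proteins when phosphate is plentiful. The products of these genes take up and recover phosphate, and replace phospholipids in membranes with galactolipids and sulfolipids. Bulk RNA of whole leaves cannot tell fewer cells of a type from less RNA per cell.

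Reads assigned to genes numbered 10344995 and 11213550 in the EXS34-filed leaves and 12454152 and 9912387 in the pho14-filed leaves, within the range of 9465995 to 15530134 of all 8 leaf libraries. The libraries of each pair differed by more than counting error, with a chi-square per degree of freedom of 8.7 for the EXS34-filed and 11.9 for the pho14-filed leaves. The leaf marker RBCS1A, a Rubisco small subunit gene, stood at 19470 and 17430 CPM in the EXS34-filed leaves and at 18170 and 16440 CPM in the pho14-filed leaves, and 6 of the 8 root markers had too few reads to be tested. Of the 10 flower markers 8 were also too low to be tested, but among the compared libraries EXS34-filed replicate 1 held most of their reads. It did not for FT (6 and 5 reads against 2 and 2) or FLC (1 and 5 against 1 and 1). The floral regulator AP1 had 46 and 3 reads in the EXS34-filed leaves and 8 and 3 in the pho14-filed leaves, SEP3 had 33 and 2 against 4 and 0, and AP3 had 27 and 0 against 5 and 2. The guard cell markers summed to 2820 and 6560 CPM against 5350 and 5710 CPM, with EXS34-filed replicate 1 the lowest. The part of these transcripts in the results was not tested. Levels are CPM, read counts relative to library size scaled by TMM, and fold changes are log2 values of EXS34-filed over pho14-filed leaves. The ± after a fold change is an approximate error. It was worked back from that fold change and its test, and is no standard error estimated by the fit. Adjusted p-values were computed by edgeR (quasi-likelihood) over 18548 genes.

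PHO1 (AT3G23430, chr3:8387398-8393467 in TAIR10.1) stood at 72.3 and 87.4 CPM in the EXS34-filed leaves and at 61.9 and 45.9 CPM in the pho14-filed leaves. The libraries did not overlap, but the difference did not pass the test (log2 fold change 0.56 ± 0.21, adjusted p = 0.163), nor did it without EXS34-filed replicate 1 (0.69, adjusted p = 0.234). Counts at this locus may hold reads of the mutant allele as well as of a transgene, so this level does not check the labels.

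Phosphate starvation transcripts were much lower in the EXS34-filed leaves. Of the 16 genes of the phosphate starvation core, 14 were lower and none higher, where 2.26% of all genes tested were lower and 3.43% higher. The lists here and below were chosen with earlier results of these data known, so their counts describe these libraries and are no independent test. The median log2 fold change of the 16 was -2.54, against -0.01 for all genes tested, and it ran from -4.81 to -1.47. The other 2, the ribonuclease gene RNS1 (adjusted p = 0.0898) and the phosphate transporter gene PHT1;4 (adjusted p = 0.0708), had log2 fold changes of -3.62 and -1.80.

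IPS1 (AT3G09922), a noncoding RNA that sequesters a microRNA of phosphate signalling, stood at 7.87 and 12.1 CPM in the EXS34-filed leaves and at 148 and 78.5 CPM in the pho14-filed leaves (log2 fold change -3.50 ± 0.37, adjusted p = 0.00952). SPX1 (AT5G20150), a phosphate sensor that holds PHR1 back, stood at 18.1 and 34.0 CPM against 317 and 159 CPM (-3.19 ± 0.44, adjusted p = 0.0209). The related SPX3 (AT2G45130) had the lowest fold change of the core, with 0.777 and 1.16 CPM in the EXS34-filed leaves and 39.5 and 15.4 CPM in the pho14-filed leaves (-4.81 ± 0.63, adjusted p = 0.0138). PHO1;H1 (AT1G68740), the homologue closest to PHO1, had 21.7 and 30.4 CPM in the EXS34-filed leaves and 81.8 and 65.5 CPM in the pho14-filed leaves (-1.50 ± 0.20, adjusted p = 0.00774). For each of these 4 genes both pho14-filed libraries lay above both EXS34-filed libraries, as for every gene called lower. For all 16 core genes pho14-filed replicate 1 was the higher of its pair, and for 14 of them EXS34-filed replicate 2 was.

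**Figure D1:**
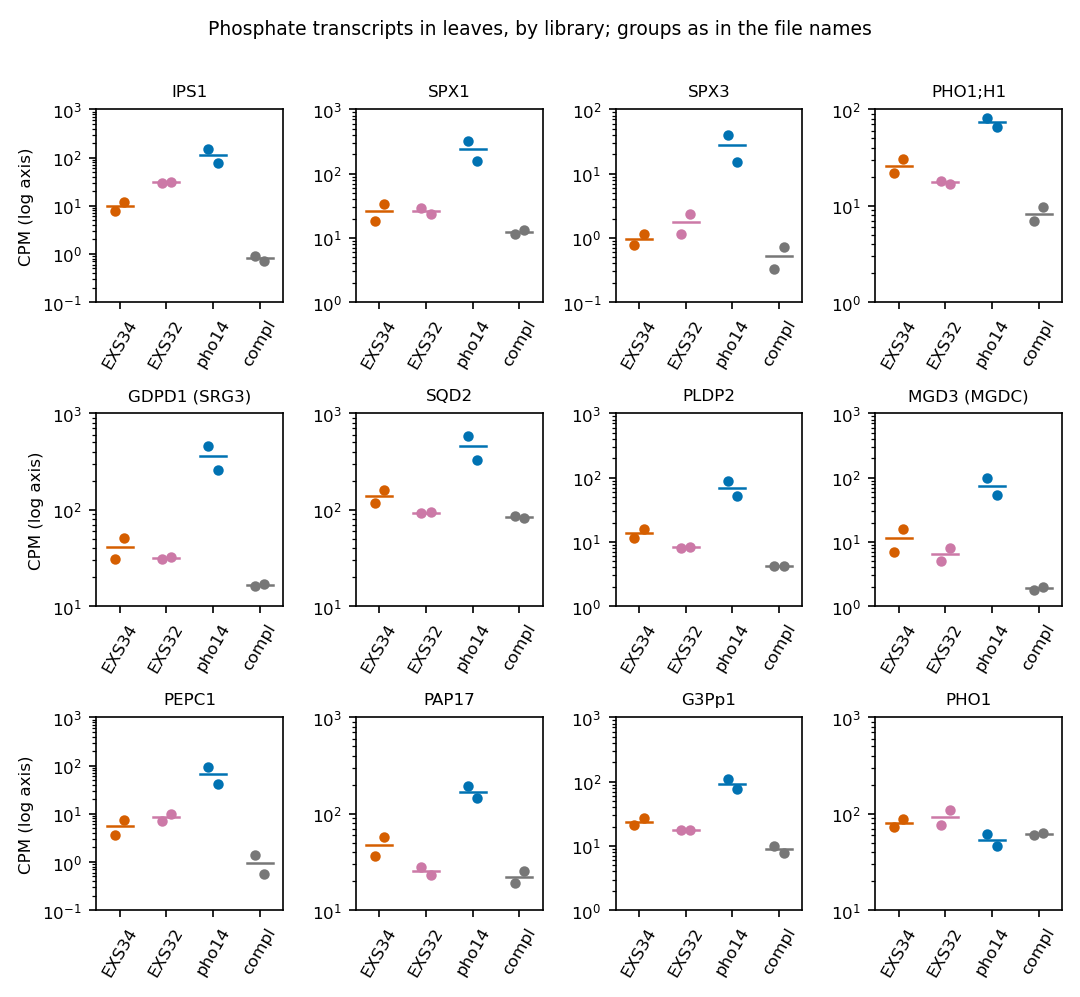
CPM on a log axis of 11 phosphate starvation transcripts and of PHO1 in the 8 leaf libraries, with groups named by their files. Each point is 1 library and each bar the mean of 2. The pho14-filed leaves have the highest mean in all panels except PHO1, and the compl-filed leaves have the lowest in all but that panel.

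The number of core genes called depended on single libraries, while the size of the difference varied less. The call was kept by 3 of the 16 without EXS34-filed replicate 1, namely G3Pp1, PHO1;H1 and AT5G03545, and the median log2 fold change was -2.22. Without EXS34-filed replicate 2 the count was 9 and the median -2.98, without pho14-filed replicate 1 they were 12 and -2.06, and without pho14-filed replicate 2 they were 14 and -2.91. The 4 libraries alone gave 3 calls with a median of -2.54.

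The compl-filed leaves give another level for the same genes. The comparisons below share libraries with the first and are not independent of it. Of the 16 core genes 15 were higher in the pho14-filed than in the compl-filed leaves, where 6.41% of all genes were called in either direction, with a median log2 fold change of 4.17. In the EXS34-filed leaves 5 were higher than in the compl-filed leaves, where 5.93% of all genes were called, with a median of 1.36. These 5 were IPS1, AT5G03545, PHO1;H1, PLDP2 and G3Pp1. For 14 of the 16 genes the mean of the EXS34-filed leaves lay between those of the pho14-filed and the compl-filed leaves. IPS1 averaged 9.97 ± 2.96 CPM in the EXS34-filed, 113 ± 49.3 CPM in the pho14-filed and 0.814 ± 0.135 CPM in the compl-filed leaves (SD, n = 2 each). In the EXS32-filed leaves it averaged 30.45 ± 1.99 CPM.

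P1BS, the element that PHR1 binds, has the letters GNATATNC and reads the same on both strands. It was searched in the 500 bases before the annotated start of each gene in TAIR10.1, a window that can reach into a neighbouring gene. Of the promoters of the 14 core genes that were lower 8 held it, of those of all 415 lower genes with such a window 103 (24.8%), of those of 634 higher genes 63 (9.94%) and of those of all 18498 tested genes 2002 (10.8%). These shares describe letters in a window and were not tested. Windows around the element are shown for 5 core genes because they are among the core genes described here. Each is written 5′ to 3′ on the strand of its gene, with the element in capitals.
SPX3, chr2:18606294-18606353, plus strand: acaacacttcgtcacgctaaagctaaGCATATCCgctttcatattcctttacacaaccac
PEPC1, chr1:6092356-6092415, minus strand: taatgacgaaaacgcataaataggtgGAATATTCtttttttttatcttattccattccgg
PS2, chr1:27466532-27466591, minus strand: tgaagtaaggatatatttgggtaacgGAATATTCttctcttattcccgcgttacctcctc
GDPD1, chr3:350040-350099, minus strand: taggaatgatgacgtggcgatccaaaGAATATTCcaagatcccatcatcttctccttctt
SQD2, chr5:90424-90483, minus strand: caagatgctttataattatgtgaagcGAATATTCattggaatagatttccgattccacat
The element begins 90 bases before the annotated start of SPX3, 362 before PEPC1, 217 before PS2, 63 before GDPD1 and 340 before SQD2. SPX3 held a further copy in its window and GDPD1 held 4 in all. No window of IPS1, SPX1, PHO1;H1, PAP17, MGD3 or G3Pp1 of this length held these letters.

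Genes that exchange phospholipids for other lipids were lower in the EXS34-filed leaves as a group. Of 18 tested genes of membrane lipid remodelling 11 were lower and none higher, with a median log2 fold change of -1.33. The lists share genes, with 488 entries for 469 loci, so their counts are not separate results. Of the genes called, SQD2, MGD3, PLDP2 and GDPD1 here belong to the core too. So do PEPC1, PS2, PAP17, SPX1, SPX3, PHO1;H1 and G3Pp1 in the lists below. SQD1 (AT4G33030), the first enzyme of sulfolipid synthesis, stood at 230 and 284 CPM in the EXS34-filed leaves and at 738 and 532 CPM in the pho14-filed leaves (log2 fold change -1.30 ± 0.17, adjusted p = 0.00774). UGP3, which makes UDP-glucose in plastids for the same pathway, had 182 and 193 CPM against 586 and 376 CPM, and SQD2, its last enzyme, 117 and 161 CPM against 589.7 and 332 CPM. The libraries of the groups did not overlap for any of the 3, as for every called gene.

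The galactolipid and phospholipase genes followed. The monogalactolipid synthase genes MGD2 and MGD3 (MGDC in the gene table) had log2 fold changes of -2.06 ± 0.34 and -2.72 ± 0.46, and the digalactolipid synthase genes DGD1 and DGD2 of -0.95 ± 0.15 and -0.54 ± 0.13. PLDP2, which encodes phospholipase D zeta 2, stood at 11.6 and 15.7 CPM in the EXS34-filed leaves and at 89.3 and 51.0 CPM in the pho14-filed leaves (adjusted p = 0.00774). GDPD1 (SRG3, AT3G02040), a glycerophosphodiester phosphodiesterase gene, had 30.6 and 50.8 CPM against 462 and 258 CPM (-3.14 ± 0.36, adjusted p = 0.0138). Its relative GDPD6 and the phosphatidate phosphatase gene PAH1 were lower too, at -3.60 ± 0.67 and -1.06 ± 0.17. None of the 18 was called without EXS34-filed replicate 1, with 5 called without EXS34-filed replicate 2, 8 without pho14-filed replicate 1 and 14 without pho14-filed replicate 2.

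Phosphatase and nuclease genes, whose products release phosphate from organic compounds, were lower for 8 of 17 tested members and higher for none (median log2 fold change -1.85). PAP5, a purple acid phosphatase gene, had 8 reads over both EXS34-filed libraries and 526 over both pho14-filed libraries, or 0.194 and 0.536 CPM against 33.6 and 10.3 CPM (-5.86 ± 0.87, adjusted p = 0.0204). PAP24 stood at 1.17 and 1.43 CPM against 16.8 and 9.60 CPM, PAP25 at 0.292 and 0.983 CPM against 6.30 and 3.56 CPM, and PAP22 at 2.14 and 2.59 CPM against 16.8 and 6.53 CPM. PEPC1 (AT1G17710), a phosphatase of phosphoethanolamine and phosphocholine, had 3.60 and 7.51 CPM in the EXS34-filed leaves and 95.2 and 41.2 CPM in the pho14-filed leaves (-3.61 ± 0.56, adjusted p = 0.0270). PS2, a pyrophosphate-specific phosphatase gene, had 12.3 and 21.2 CPM against 273 and 109 CPM. The remaining members called were PAP17 (-1.85 ± 0.26) and AT1G13750, annotated as a purple acid phosphatase (-1.46 ± 0.25). None was called without EXS34-filed replicate 1, 4 were without EXS34-filed replicate 2, 5 without pho14-filed replicate 1 and 11 without pho14-filed replicate 2.

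Of 13 tested genes of phosphate transport 4 were lower and 1 higher in the EXS34-filed leaves. PHT1;9, a plasma membrane transporter gene, had 1 read over the EXS34-filed and 50 over the pho14-filed libraries, and PHT1;5 stood at 0.292 and 0.804 CPM against 3.35 and 2.28 CPM. PHF1, which lets PHT1 transporters leave the endoplasmic reticulum, had 15.2 and 19.8 CPM in the EXS34-filed leaves and 56.1 and 37.7 CPM in the pho14-filed leaves (log2 fold change -1.42 ± 0.21, adjusted p = 0.00994). G3Pp1, a putative glycerol-3-phosphate transporter gene, had 20.8 and 27.2 CPM against 109 and 78.0 CPM (-1.96 ± 0.19, adjusted p = 0.00393). PHT2;1, the transporter of the chloroplast envelope, was the gene that was higher, at 159.5 and 163 CPM in the EXS34-filed leaves and 106 and 123 CPM in the pho14-filed leaves (0.50 ± 0.09, adjusted p = 0.0176). The mitochondrial PHT3;1 (0.08 ± 0.12) and the plastid PHT4;1 (0.20 ± 0.09) did not pass the test. PHT1;8 was too low to be tested, with 0 and 0 reads in the EXS34-filed leaves and 18 and 6 in the pho14-filed leaves. Lower members numbered 1 without EXS34-filed replicate 1, 4 without EXS34-filed replicate 2, 2 without pho14-filed replicate 1 and 6 without pho14-filed replicate 2. PHT2;1 lost its call in the first 3 of these cases.

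Among the signalling genes 6 of 16 tested were lower and none higher. Besides SPX1 and SPX3 these were SPX2 (18.9 and 26.8 CPM in the EXS34-filed leaves, 78.4 and 59.3 CPM in the pho14-filed leaves, adjusted p = 0.00691), the transcription factor genes WRKY75 and ZAT6, and AT5G15070, annotated as a phosphoglycerate mutase-like protein. WRKY75 had 6 reads over the EXS34-filed and 94 over the pho14-filed libraries (-3.81 ± 0.51, adjusted p = 0.00675). PHR1 itself differed little, at 43.1 and 43.2 CPM against 51.2 and 49.8 CPM (-0.23 ± 0.09, adjusted p = 0.187), and so did SPX4 (adjusted p = 0.655). PHO2, whose product degrades phosphate transporters and PHO1, stood at 93.7 and 111 CPM against 166 and 113 CPM (adjusted p = 0.161). Of 9 tested PHO1 family genes PHO1;H1 was lower and AT1G26730, annotated as an EXS family protein, was higher (8.26 and 5.99 CPM against 3.27 and 2.08 CPM, adjusted p = 0.0225). Among the 6 signalling genes only SPX2 kept its call without EXS34-filed replicate 1, and AT1G26730 lost its own there and without pho14-filed replicate 2. The signalling count was 3 without EXS34-filed replicate 2 and 4 without pho14-filed replicate 1.

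Over all genes 1056 were called (5.69%), of which 637 were higher and 419 lower in the EXS34-filed leaves. The lower genes differed by more, with a median log2 fold change of -1.11 against 0.63 for the higher ones. At least a 2-fold change was seen for 232 of the lower and 132 of the higher genes. Of the 419 lower genes 376 had a lower mean in the compl-filed than in the pho14-filed leaves, and 368 had one in the EXS32-filed leaves. Of the 637 higher genes 123 and 180 did. The genes were called through the same pho14-filed libraries, which favours such counts, so they are not separate evidence. In 85.9% of the lower genes pho14-filed replicate 1 was above replicate 2, where the share over all genes was 51%. There were 123 higher and 42 lower genes without EXS34-filed replicate 1, and 331 higher and 196 lower without EXS34-filed replicate 2. The majority turned without pho14-filed replicate 1, with 195 higher and 219 lower, and without pho14-filed replicate 2, with 696 higher and 967 lower. The 4 libraries fitted alone gave 87 higher and 71 lower genes.

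**Figure D2:**
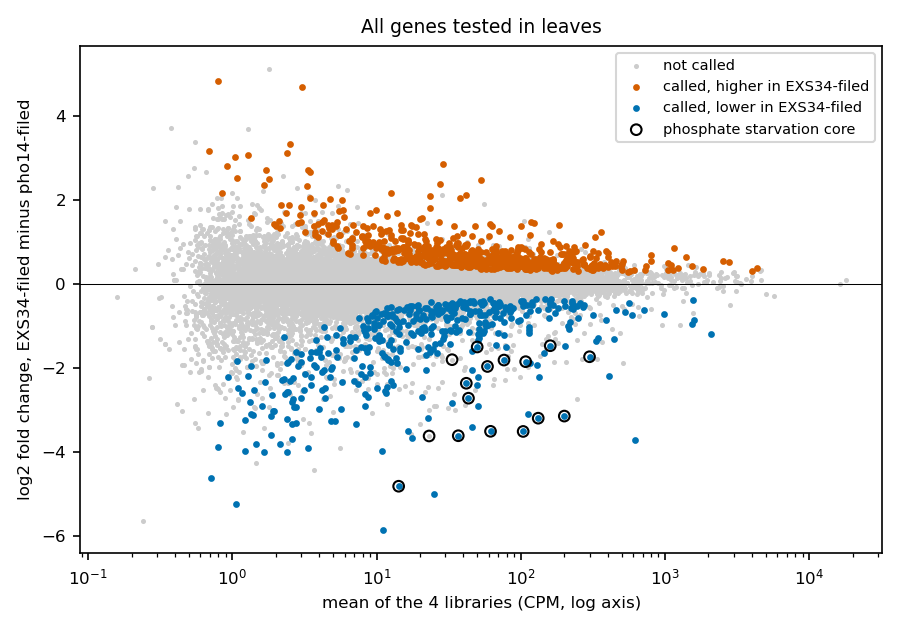
Log2 fold change of EXS34-filed over pho14-filed leaves against the mean CPM of the 4 libraries on a log axis, for the 18548 genes tested. Orange and blue points are the 637 higher and 419 lower genes, and rings mark the 16 genes of the phosphate starvation core, which all lie below 0.

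Among the largest decreases were genes outside the phosphate lists. GAT1_2.1, a glutamine amidotransferase-like gene, stood at 0.777 and 2.23 CPM in the EXS34-filed leaves and at 73.3 and 23.9 CPM in the pho14-filed leaves (log2 fold change -4.99 ± 0.74, adjusted p = 0.0249). AT3G25240, annotated only by a domain of unknown function, had 1.36 and 1.25 CPM against 26.5 and 14.2 CPM (-3.96 ± 0.35, adjusted p = 0.00184) and kept its call without each library in turn. BGL2, the glucanase gene also known as PR2, had 67.5 and 108 CPM against 1642 and 678 CPM (-3.72 ± 0.64, adjusted p = 0.0354). The call of BGL2 ended when any 1 of the 4 libraries was left out. That of GAT1_2.1 ended without either EXS34-filed library. The glutamate receptor gene ATGLR1.2, the methyl esterase gene MES9, the glucosidase gene BGLU21, AT3G61410 and AT2G09960 had 9 or fewer reads over both EXS34-filed libraries and 55 to 151 over both pho14-filed libraries, and their calls ended without EXS34-filed replicate 1. With SPX3, PAP5, PHT1;9 and WRKY75 they complete the 12 largest decreases.

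The 12 largest increases were mostly of weakly expressed genes. IAA6, a repressor of auxin responses, stood at 4.96 and 4.11 CPM in the EXS34-filed leaves and at 0.239 and 0.693 CPM in the pho14-filed leaves (log2 fold change 3.31 ± 0.42, adjusted p = 0.00608). LRX2, a leucine-rich repeat extensin gene of the cell wall, had 4.28 and 4.29 CPM against 0.558 and 0.396 CPM (3.12 ± 0.41, adjusted p = 0.00675), and the transcription factor gene TCP1 6.51 and 5.09 CPM against 0.956 and 0.792 CPM. CER4, which makes wax alcohols, had 8.55 and 3.39 CPM against 0.717 and 1.19 CPM. The groups did not overlap for any of these 4, but they did not for any called gene, and genes ranked by fold change were chosen without overlap.

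Among the better expressed increases AT1G68600, annotated as an aluminum-activated malate transporter family protein, stood at 41.5 and 50.2 CPM in the EXS34-filed leaves and at 7.17 and 10.6 CPM in the pho14-filed leaves (2.38 ± 0.23, adjusted p = 0.00393). AT4G16563, annotated as an aspartyl protease, had 45.8 and 55.6 CPM against 5.10 and 9.11 CPM. The remaining 5 were AT5G37940, PDC3, AT1G33760, AT1G57590 and BXL3, with log2 fold changes from 2.34 to 4.67. AT2G21960, an uncharacterized protein gene, had the lowest adjusted p of all genes and is described with the roots. Without EXS34-filed replicate 1 the calls of AT5G37940, PDC3, AT4G16563, AT1G33760, CER4, AT1G57590 and BXL3 ended, and without pho14-filed replicate 1 those of the same genes other than AT1G57590. AT5G37940 also lost its call without pho14-filed replicate 2 and AT1G33760 without EXS34-filed replicate 2.

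Cell wall loosening genes and water channel genes were higher in part. Of 10 cell wall growth genes edgeR called 4 higher and none lower, with a median log2 fold change of 0.63, and DESeq2 called 5 higher and 1 lower. XTH7, a xyloglucan endotransglucosylase gene, stood at 148 and 141 CPM in the EXS34-filed leaves and at 54.2 and 58.4 CPM in the pho14-filed leaves (1.36 ± 0.17, adjusted p = 0.00675), and the expansin gene EXPA5 at 42.7 and 53.9 CPM against 21.8 and 27.9 CPM (0.96 ± 0.15, adjusted p = 0.00985). TCH4 and XTH4 were higher by 0.61 ± 0.12 and 0.65 ± 0.15. Of 11 aquaporin genes 2 were higher, the tonoplast gene GAMMA-TIP (566 and 447 CPM against 216 and 212 CPM, adjusted p = 0.00393) and the plasma membrane gene PIP2A (479 and 510.2 CPM against 273 and 307 CPM, adjusted p = 0.00754). All 11 aquaporin genes had a fold change above 0, with a median of 0.39. In edgeR's fit of all 16 libraries GAMMA-TIP was called (adjusted p = 0.0236) and PIP2A was not (adjusted p = 0.135). XTH7 and TCH4 were not called there either (adjusted p = 0.0731 and 0.0854), while EXPA5 and XTH4 were. Both aquaporin calls were kept without each library in turn. Among the 4 cell wall genes only EXPA5 kept its call without EXS34-filed replicate 1, and 2 of the list were called without EXS34-filed replicate 2.

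Cytokinin response regulators of type A were higher for 3 of 8 tested genes, with a median log2 fold change of 0.65 and none below 0. RR16 (the gene of ARR16) stood at 9.33 and 9.11 CPM in the EXS34-filed leaves and at 1.83 and 2.87 CPM in the pho14-filed leaves (1.99 ± 0.31, adjusted p = 0.0107). ARR15 had 5.83 and 4.83 CPM against 1.91 and 2.18 CPM, and ARR9 30.9 and 31.5 CPM against 18.8 and 18.1 CPM. The count was 0 without EXS34-filed replicate 1 or without pho14-filed replicate 1, 1 without EXS34-filed replicate 2 and 2 without pho14-filed replicate 2.

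**Figure D3:**
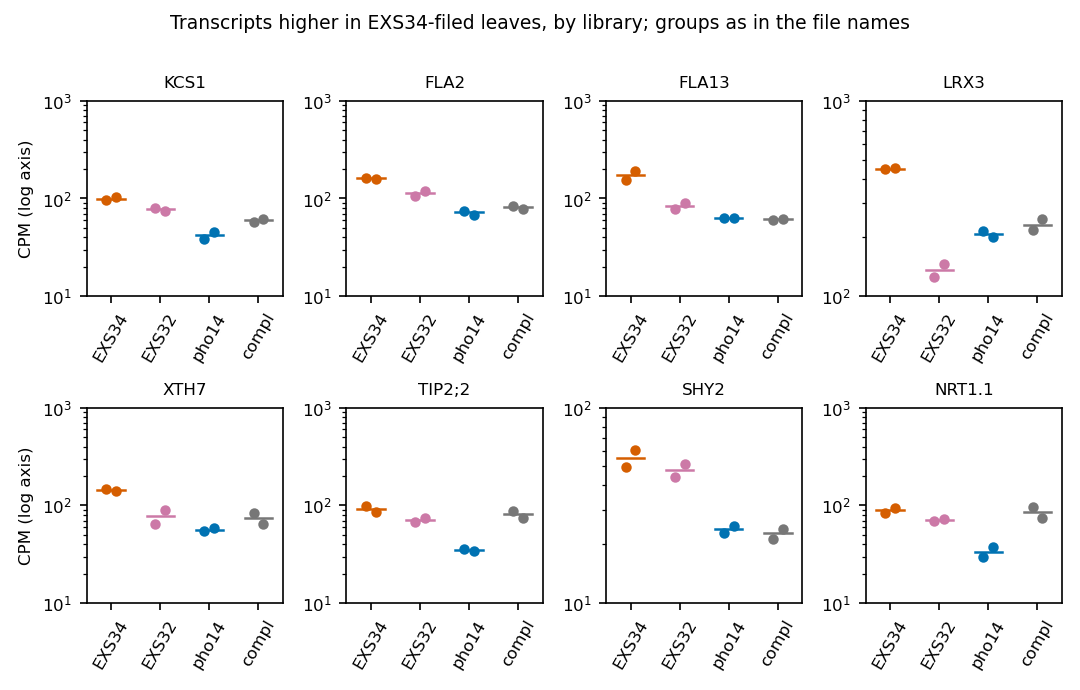
CPM on a log axis of 8 transcripts that were higher in EXS34-filed than in pho14-filed leaves, in the 8 leaf libraries with groups named by their files. Each point is 1 library and each bar the mean of 2. For NRT1.1 and TIP2;2 the compl-filed leaves lie near the EXS34-filed ones, and for FLA13 and SHY2 near the pho14-filed ones.

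Genes of nitrogen assimilation were higher for 4 of 16 members and lower for none. NRT1.1, a nitrate transporter and sensor gene, stood at 84.3 and 94.7 CPM in the EXS34-filed leaves and at 30.0 and 37.4 CPM in the pho14-filed leaves (log2 fold change 1.41 ± 0.15, adjusted p = 0.00393). The nitrite reductase gene NIR1 and the glutamate synthase genes GLU1 and GLT1 were higher by 0.56 ± 0.11, 0.49 ± 0.08 and 0.38 ± 0.08. The median of the list was 0.01, with 8 members above 0 and 8 below. Of 18 aliphatic glucosinolate genes, which make methionine-derived defence compounds, 4 were higher with a median of 0.38: IPMI2 of methionine chain elongation (117 and 126 CPM against 65.7 and 74.0 CPM), the plastid transporter gene BAT5 (64.0 and 65.0 CPM against 36.0 and 38.6 CPM), MAM1 (0.42 ± 0.10) and AT2G31790 (0.53 ± 0.11). Without EXS34-filed replicate 1 NRT1.1, IPMI2 and BAT5 kept their calls and the other nitrogen genes, MAM1 and AT2G31790 did not. The same 3 were the ones to keep them without pho14-filed replicate 1 together with GLU1.

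Of 23 starch and sugar genes 4 were higher and 3 lower, with 11 fold changes above 0 and 12 below. SEX1, the glucan water dikinase gene that starts starch breakdown, stood at 1077 and 887 CPM in the EXS34-filed leaves and at 585 and 630.0 CPM in the pho14-filed leaves (0.69 ± 0.11, adjusted p = 0.0111), and its partner PWD at 549 and 484 CPM against 369 and 399 CPM. DPE2, which handles the maltose released, and APE2, the triose phosphate exporter of the chloroplast, were higher by 0.37 ± 0.09 and 0.39 ± 0.06. The granule-bound starch synthase gene GBSS1 (3.50 and 7.15 CPM against 23.1 and 14.2 CPM) and the sucrose transporter genes SUC1 and SWEET12 were lower. DESeq2 called 5 genes of the list lower and limma-voom 2. With each library left out in turn the log2 fold change of SUC1 ran from -0.98 to -0.84. Of 29 photosynthesis genes the Rubisco gene RBCS2B (2980 and 2971 CPM against 1968 and 2115 CPM, adjusted p = 0.00774) and the Rubisco activase gene RCA were higher and none lower, with a median of 0.13. Over all genes tested 3.43% were higher and 2.26% lower, so the photosynthesis count does not set that list apart. In edgeR's fit of all 16 libraries neither RBCS2B nor RCA was called (adjusted p = 0.105 and 0.517), nor with the 4 libraries alone (0.0527 and 0.102). Without EXS34-filed replicate 1 none of the 4 higher starch genes was called and 1 was without pho14-filed replicate 1, with none in the fit of all 16 libraries, while RBCS2B kept its call without each library. RCA lost its own without either EXS34-filed library and without pho14-filed replicate 1.

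Transcripts known from dark or sugar-starved leaves were lower for 4 of 18 genes. ASN1, the asparagine synthetase gene, stood at 11.9 and 19.6 CPM in the EXS34-filed leaves and at 93.4 and 73.1 CPM in the pho14-filed leaves (log2 fold change -2.40 ± 0.27, adjusted p = 0.00797). BCAT-2, of branched-chain amino acid breakdown, had 2.04 and 1.79 CPM against 9.32 and 6.24 CPM, the glutamate dehydrogenase gene GDH1 63.3 and 77.3 CPM against 126 and 130.2 CPM, and SEN1 34.6 and 27.4 CPM against 81.9 and 59.7 CPM. EXO, a growth gene of the same list, was higher (0.89 ± 0.14), but not without EXS34-filed replicate 1. Each library left out in turn gave 3 to 5 lower genes, and ASN1, BCAT-2 and GDH1 kept their calls in all 4 cases.

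Defence transcripts of the salicylate pathway had lower values throughout the list but passed the test for 2 genes of 22. PR1 stood at 51.5 and 43.2 CPM in the EXS34-filed leaves and at 284 and 155 CPM in the pho14-filed leaves (-2.21 ± 0.40, adjusted p = 0.0395), and BGL2 was given above. All 22 fold changes were below 0, with a median of -1.31, and in all 22 pho14-filed replicate 1 was above replicate 2. Against the compl-filed leaves the median of the list was -0.13 in the pho14-filed and -1.40 in the EXS34-filed leaves. Unlike for the core, the EXS34-filed median was thus the farther from the compl-filed leaves. DESeq2 called 5 of the 22 lower, and an edgeR fit blocked by replicate number called 8. The summed level of the list was 753 and 575 CPM in the EXS34-filed leaves and 3460 and 1510 CPM in the pho14-filed leaves. Neither gene was called without EXS34-filed replicate 1, without EXS34-filed replicate 2 or without pho14-filed replicate 1, and 3 of the list were without pho14-filed replicate 2.

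Single members were called in some lists. Over all genes tested 5.69% were called in either direction, so a single call is no result about a list. The jasmonate repressor gene JAZ7 was higher, at 21.0 and 14.6 CPM in the EXS34-filed leaves and 6.22 and 5.34 CPM in the pho14-filed leaves (1.61 ± 0.22, adjusted p = 0.00675), with 27 other jasmonate genes not called by edgeR, where DESeq2 and limma-voom each called 2 lower. Of the clock genes GI (0.61 ± 0.08) and PRR3 (0.47 ± 0.09) were higher, and of the abscisic acid and cold genes COR47 and ERD14 were higher and LTI30 lower. The metal chelate transporter gene YSL3 was lower (-0.80 ± 0.13, adjusted p = 0.0111). The sulfate transporter gene SULTR1;3, also a phloem marker, was lower with 6 reads over the EXS34-filed libraries, and the other 4 phloem markers were not called. Of the other leaf markers CA1 was higher (0.53 ± 0.07, adjusted p = 0.00675). The sulfate assimilation gene APS3 was higher (0.57 ± 0.12). In edgeR's fit of all 16 libraries GI alone of the genes named here kept its call (adjusted p = 0.0274). The adjusted p there was 0.257 for JAZ7, 0.245 for COR47, 0.373 for LTI30 and 0.107 for CA1. Without EXS34-filed replicate 1 the calls of PRR3, COR47, ERD14, LTI30, YSL3, SULTR1;3 and APS3 ended. Without EXS34-filed replicate 2 those of PRR3, LTI30, YSL3 and APS3 did, without pho14-filed replicate 1 those of PRR3, LTI30, SULTR1;3 and APS3, and without pho14-filed replicate 2 that of ERD14.

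Lists with no gene called were anthocyanin (22 tested, lowest adjusted p = 0.118), indole glucosinolate (8), zinc (9), cell division (13), senescence (8) and heat shock (3), as were the guard cell (6), trichome (3), root (2) and flower (2) markers. These counts are from edgeR. At an unadjusted p under 0.05 edgeR gave 4 anthocyanin, 3 indole glucosinolate, 3 zinc, 2 cell division, 4 senescence, 2 heat shock and 2 guard cell genes and none of the trichome, root or flower markers. DESeq2 called 1 anthocyanin and 2 senescence genes lower and limma-voom 1 senescence gene, and neither called a gene of the other lists.

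**Figure D4:**
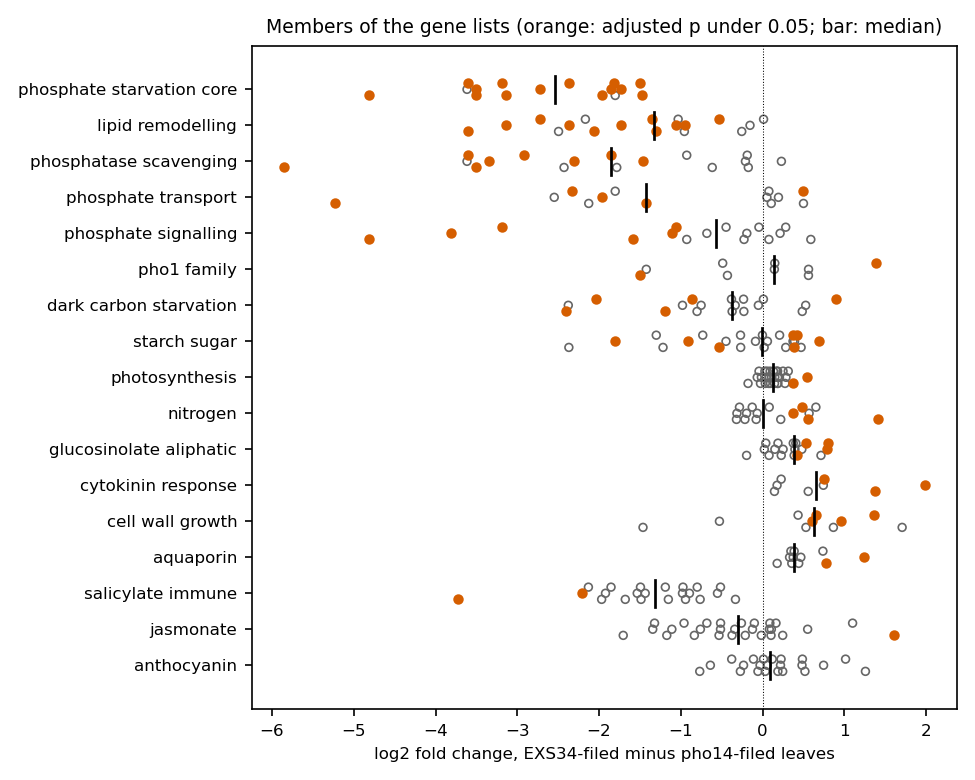
Log2 fold changes of EXS34-filed over pho14-filed leaves for the tested members of 17 gene lists. Each circle is 1 gene, filled in orange where the adjusted p was under 0.05, and the bar is the median of the list. The phosphate starvation core lies wholly left of 0 with a median of -2.54, and the aquaporin and cytokinin response genes lie right of it.

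In roots, where titles and file names agree, EXS34 was set against KO, the contrast that the leaf file names give. The leaf titles give another contrast, EXS32 against EXS34. In a fit of all 16 libraries 43 of 21351 genes (0.201%) were called between EXS34 and KO roots. The 637 genes higher in the EXS34-filed leaves had a median root log2 fold change of 0.17, with 488 above and 144 below 0, and the 419 lower genes one of -0.15, with 128 above and 285 below. Over all 18548 genes in both fits 9166 were above and 9225 below 0. The 16 core genes had root fold changes from -2.29 to 0.46 with a median of -0.55, and none was called in roots. SPX1 stood at 71.5 and 75.3 CPM in EXS34 roots and at 94.2 and 139 CPM in KO roots, and PHO1;H1 at 31.9 and 30.5 CPM against 61.0 and 62.9 CPM.

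The difference between the leaf and the root effect was tested as an interaction. It was called for 13 genes (0.0609%), 5 with the leaf effect above the root effect (0.0234%) and 8 with it below (0.0375%), and for none of the 16 core genes, whose adjusted p ran from 0.059 to 0.64. The core effects in the 2 organs were therefore not shown to differ, although the leaf median was farther from 0. The count depended on the matching of groups and on single libraries. It was 1448 when the leaf groups were matched to roots by their titles, as EXS32 against EXS34 roots, and 397 with DESeq2. It was 3 without EXS34-filed leaf replicate 1, 5 without pho14-filed leaf replicate 1, 153 without pho14-filed leaf replicate 2, 6 without KO root replicate 2, and 25 and 23 without EXS34 root replicates 1 and 2.

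**Figure D5:**
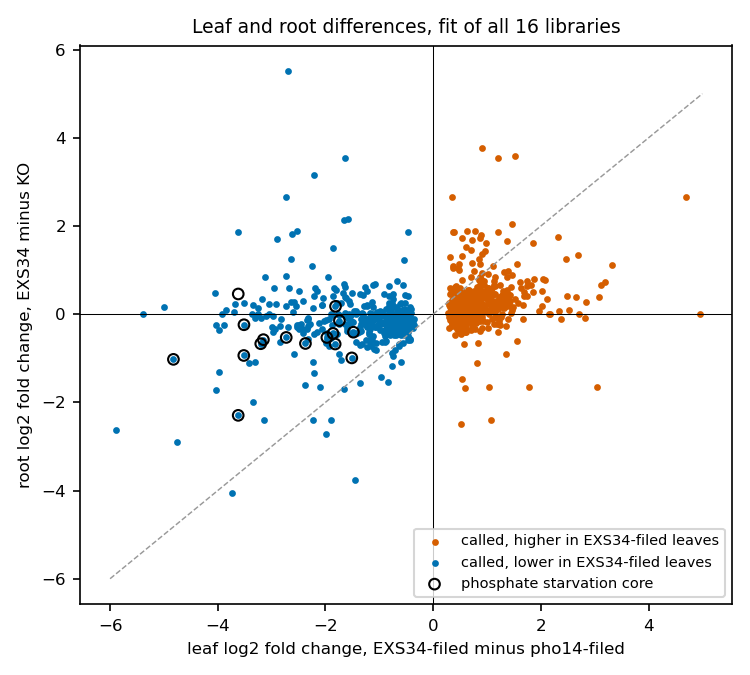
Log2 fold change in roots (EXS34 minus KO) against that in leaves (EXS34-filed minus pho14-filed) from the fit of all 16 libraries, for the genes called in leaves. Orange and blue points are genes higher and lower in EXS34-filed leaves, rings are the 16 core genes and the dashed line marks equal change. Most rings lie left of the dashed line, with root values between -2.29 and 0.46.

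Of the genes called in the fit of the leaf libraries 7 were also called between EXS34 and KO roots, all with the same sign. SEC3B, AT1G62480, PHT2;1, FLA2 and FLA13 were higher and OZF1 and AT2G30540 lower. The root calls came from the fit of all 16 libraries, where PHT2;1 and AT2G30540 were not called in leaves (edgeR adjusted p = 0.107 and 0.158). FLA13, a fasciclin-like arabinogalactan protein gene, stood at 153 and 193 CPM in the EXS34-filed leaves and at 62.5 and 62.8 CPM in the pho14-filed leaves (log2 fold change 1.47 ± 0.12, adjusted p = 0.00173), and its root log2 fold change was 2.04. The calls of OZF1 and PHT2;1 ended without EXS34-filed leaf replicate 1, and those of AT1G62480 and PHT2;1 without pho14-filed leaf replicate 1. SEC3B (AT1G47560), an exocyst subunit gene, is given in all 16 libraries because its root groups did not overlap, a choice made after its values were seen. On the scale of all 16 libraries it had 20.3 and 16.5 CPM in EXS34 roots, 16.8 and 20 CPM in EXS32 roots, 6.38 and 4.60 CPM in KO roots and 4.87 and 5.48 CPM in Compl roots. In leaves it had 6.46 and 6.88 CPM in the EXS34-filed, 6.52 and 6.44 CPM in the EXS32-filed, 1.54 and 1.09 CPM in the pho14-filed and 2.22 and 1.83 CPM in the compl-filed libraries. For this gene the libraries filed as EXS lines lay above the other leaf libraries, as the EXS lines did in roots. By title these leaf libraries are EXS32 and Compl. The leaf means also set both EXS-filed groups apart for AT1G62480, FLA2 and FLA13, but not for PHT2;1, OZF1 or AT2G30540. These genes do not settle the labels.

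AT2G21960 had the same order in leaves as SEC3B. It stood at 94.8 and 85.2 CPM in the EXS34-filed, 78.2 and 80.8 CPM in the EXS32-filed, 18.17 and 14.15 CPM in the pho14-filed and 16.76 and 17.03 CPM in the compl-filed leaves, and its log2 fold change of 2.47 ± 0.13 (adjusted p = 0.000102) was kept without each library. In roots its highest value was 0.954 CPM. Of 172 genes examined by name 34 overlap a gene on the opposite strand, among them AT2G21960, PAP17, PAP24, PLDP2, UGP3, GDPD1, GDPD6, ASN1 and GAT1_2.1, and the strand setting of the counts is not given in the sources used here. Reads of such pairs cannot be told apart.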

How the data were processed

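The deposited files hold read counts per locus, for 32678 loci, and 5 last lines of reads assigned to no gene (7.26 to 7.77% of leaf reads), which were left out. Most of these had no unique alignment (5.76 to 6.27% of leaf reads). The authors trimmed reads with cutadapt 1.2.1, aligned them with TopHat2 2.0.9 and counted with HTSeq 0.5.4p3, per the submitters' processing notes, which also name R 3.1.1, edgeR, limma and TAIR10. Members and gene lists were chosen with earlier results of these data known. Groups follow the file names.

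The 8 leaf libraries were fitted together in edgeR 4.0.16 (R 4.3.3) with TMM scaling, filterByExpr (minimum count 10, minimum total 15) and the robust quasi-likelihood test, and genes with a Benjamini-Hochberg adjusted p under 0.05 were called. The difference between leaf and root effects was a contrast in a fit of all 16 libraries. The procedure was tested on simulated data. DESeq2 1.42.0, limma-voom (limma 3.58.1) and other settings served as alternatives. Genes were named by rule: up to 12 per direction with the largest fold change among called genes that averaged 2 CPM or more in either group, without overlap of the libraries, and up to 4 per list by adjusted p, beside genes chosen after their values were seen. Figures were drawn with matplotlib 3.10.9.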

Additional observations from a re-analysis of the deposited data

Results flagged for a closer look

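The effect in leaves (EXS34-filed minus pho14-filed) differed from that in roots (EXS34 minus KO) for 13 genes by an interaction test in edgeR over 21351 genes, with 2425 at an unadjusted p under 0.05. Values are leaf effect minus root effect on the log2 scale.

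For 4 genes the root effect passed the test and the leaf effect did not. AT2G34620 differed by -2.24 (adjusted p = 0.00513), the glycolate oxidase gene GOX1 by -3.12, the photosystem II gene PSBQ-2 by -1.93 and the aldehyde dehydrogenase gene ALDH3I1 by 0.94. PSBQ-2 stood at 7.95 and 8.69 CPM in EXS34 roots and at 2.19 and 2.32 CPM in KO roots, with a leaf log2 fold change of -0.04. GOX1 stood at 1.06 and 0.952 CPM in EXS34 roots and at 0.0866 and 0.128 CPM in KO roots, with a leaf log2 fold change of 0.03.

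For 8 genes the leaf effect passed the test and the root effect did not. The anion channel gene SLAH3 differed by 2.17 (adjusted p = 0.00513), the auxin response repressor gene SHY2 by 1.60, AT1G50040 by 1.42 and MSS3 by 0.99. On the other side AT1G08310 differed by -3.53, the kinase gene PPCK2 by -2.92, AT5G63130 by -2.70 and AT1G52800 by -2.16. SLAH3 had a log2 fold change of 1.57 in leaves and of -0.62 in roots.

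For AT1G20380, which differed by -1.21, the leaf effect had an adjusted p of 0.0283 in edgeR's fit of all 16 libraries and of 0.0609 in that of the leaf libraries, and the root effect one of 0.1.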

How the results depend on the processing

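The 1056 genes called in leaves became 1041 with DESeq2's size factors, 982 with library size alone (53.8% higher, against 60.3%), 1205 with no filter on low counts, 1049 with DESeq2 (50% higher), 886 with limma-voom and 713 in the fit of all 16 libraries (48.2% higher). They became 158 with the 4 libraries alone and 1840 with the replicate block, and leaving out each library gave 165 to 1663. The replicates of these groups are linked only by number. Their replicate differences had r = 0.335, the highest among the pairs of leaf groups, where the lowest was 0.036. Whether equal replicate numbers share a batch was not tested. The 13 genes whose organ effects differed became 31 with no filter, 1448 with roots matched by the leaf titles, 397 with DESeq2 and 3 to 153 with a library left out. Of 156 called genes followed by name, none changed direction under a setting that gave it a value. PHT1;9 had none with the 4 libraries alone. Calls ended for 0 with DESeq2's size factors, 5 with library size alone, 9 with no filter, 12 with DESeq2, 14 with limma-voom, 45 with all 16 libraries, 98 with the 4 alone, 9 with the block and 12 to 102 with a library left out. With a library left out, the leaf log2 fold change ran from -0.001 (without pho14-filed replicate 2) to 0.124 for AT2G34620. For GOX1 it ran from -0.026 (without pho14-filed replicate 1; -0.01 without EXS34-filed replicate 2) to 0.079, and for PSBQ-2 from -0.14 to 0.039 (without EXS34-filed replicate 1). None of the 3 was called in leaves. The cause of these changes was not tested. Depth limits the genes with few reads. Some of the largest decreases rest on single-digit counts in the EXS34-filed leaves. Some of the largest increases rest on few reads in the pho14-filed leaves, with 10 for IAA6 and 11 for LRX2 over both libraries.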

Other observations

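Gene families of the cell wall and cell surface were counted by symbol after their values were seen, so these counts describe the libraries and carry no test. Of 13 fasciclin-like arabinogalactan protein genes, whose products sit at the cell surface, 9 were called higher by edgeR in the EXS34-filed than in the pho14-filed leaves and none lower, where 3.43% of all genes tested were higher and 2.26% lower, with a median log2 fold change of 0.64. FLA2 stood at 161 and 160 CPM in the EXS34-filed leaves and at 75.3 and 68.5 CPM in the pho14-filed leaves, and FLA16 at 58.3 and 53.3 CPM against 29.4 and 28.1 CPM. Of 9 cellulose synthase genes 5 were higher, with CESA1 at 571 and 509 CPM against 365 and 378 CPM. Of 20 xyloglucan endotransglucosylase genes 7 were higher, of 24 AGP genes 7 and of 16 expansin genes 3, with none lower in any of the 3. Without EXS34-filed replicate 1 the counts were 5 for fasciclin-like, 1 for cellulose synthase, 2 for xyloglucan endotransglucosylase, 2 for AGP and 2 for expansin genes. Without EXS34-filed replicate 2 they were 5, 4, 2, 2 and 1 in the same order, and without pho14-filed replicate 1 they were 6, 2, 1, 2 and 1. Without pho14-filed replicate 2 they were 8, 6, 8, 6 and 5.

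Of 21 Aux/IAA genes, which encode repressors of auxin responses, 3 were higher and none lower. SHY2 stood at 49.9 and 60.4 CPM in the EXS34-filed leaves and at 22.8 and 24.9 CPM in the pho14-filed leaves, and AXR3 at 24.9 and 17.9 CPM against 8.05 and 8.02 CPM. AXR3 lost its call without EXS34-filed replicate 1 (edgeR adjusted p = 0.0591), and the count of 3 was kept without each of the other libraries. UMAMIT33, of a family of amino acid exporters, was at 1.75 and 3.40 CPM in the EXS34-filed leaves and at 38.1 and 27.5 CPM in the pho14-filed leaves (log2 fold change -3.66 ± 0.29, edgeR adjusted p = 0.00182). Of the 29 genes of that family 4 were higher and 3 lower, against 3.43% and 2.26% of all genes. The family had 0 higher and 1 lower without EXS34-filed replicate 1, 2 and 2 without EXS34-filed replicate 2, 2 and 3 without pho14-filed replicate 1 and 4 and 3 without pho14-filed replicate 2. Of 49 WRKY transcription factor genes 5 were lower and 1 higher, against the same shares of all genes (2.26% and 3.43%). The WRKY count of lower genes was 0 without EXS34-filed replicate 1, 2 without EXS34-filed replicate 2, 1 without pho14-filed replicate 1 and 8 without pho14-filed replicate 2.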
